A study of Zea mays with 6 samples.

Results

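The transcript described here is that of knotted1 (kn1), carried in the deposited table by the row Zm00001d033859, 1 of 45953 rows. It was chosen by its identifier, as the KNOX homeobox gene that maintains meristems, and the deposited table itself gives identifiers without names. KN1 is the founding member of the plant KNOX family of homeodomain transcription factors. In maize it is expressed in shoot and inflorescence meristems and excluded from the sites where organs begin. Dominant mutations that switch it on in leaves give the knots of tissue for which it is named, and loss of its function gives inflorescences with few branches and spikelets. KN1 acts together with BELL homeodomain partners and binds genes of hormone pathways, among them a gibberellin catabolism gene, so that cells of the meristem are kept from differentiating.

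RNA was taken from meristems of the tassel, the male inflorescence of maize, when they had reached 1 mm, in plants at the V6-V7 stage. The mutant plants, labelled with the cultivar B73 like the WT plants, carried the tassel-less1 (tls1) mutation, which the labels call boron deficient, and 3 libraries were made of each genotype. The gene mutated in tls1 encodes a boron-permeable aquaporin. All plants, WT included, were grown in a greenhouse under long days and fed at 238 ppm nitrogen, which corresponded to 0.08 ppm boron, and no other treatment was given. The labels do not say how many meristems or plants went into a library, nor which tls1 allele or number of backcrosses was used. The series' title names knotted1 among the genes it links to boron homeostasis, and the comparison asks whether its transcript level differs before defects in form appear.

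Counted reads ran from 73471188 to 74733984 in the tls1 libraries and from 72498318 to 77619452 in the WT libraries, so depth overlapped between the genotypes. The tls1 and WT libraries carry the same replicate numbers, and libraries of 1 number deviated together from their genotype means across genes. Nothing says that the libraries came from separate plants, and p-values measure the spread of these samples alone, which may be technical.

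The kn1 transcript was abundant in both genotypes and lower in every tls1 library than in any WT library. Counted reads of kn1 numbered 16423 in tls1 1, 15568 in tls1 2 and 16259 in tls1 3, against 22489 in WT 1, 19284 in WT 2 and 22263 in WT 3. Divided by all counted reads of the library and given per 1000000 of them (CPM), the level was 220.5 CPM in tls1 1, 211.9 CPM in tls1 2 and 217.6 CPM in tls1 3. It was 289.7 CPM in WT 1, 266.0 CPM in WT 2 and 297.6 CPM in WT 3. In tissue RNA of this kind, fewer meristem cells and less kn1 RNA per cell cannot be told apart. The tls1 libraries lay within a few CPM of each other, and WT 2 was the lowest of the WT libraries. The groups did not overlap: 45.5 CPM separated the highest tls1 library from the lowest WT library. Exact Poisson intervals at 95%, which cover counting error only, ran from 208.6 to 215.2 CPM for the lowest tls1 library (tls1 2) and from 293.7 to 301.5 CPM for the highest WT library (WT 3). Counting error was therefore small beside the gap between genotypes. In order of level, tls1 2 was followed by tls1 3 and tls1 1, and neighbours in this order had overlapping counting intervals (214.2 to 220.9 CPM for tls1 3 and 217.1 to 223.9 CPM for tls1 1). WT 2 came next, then WT 1 and WT 3, and no 2 of the WT intervals overlapped (262.3 to 269.8 CPM for WT 2 and 286.0 to 293.5 CPM for WT 1).

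**Figure D1:**
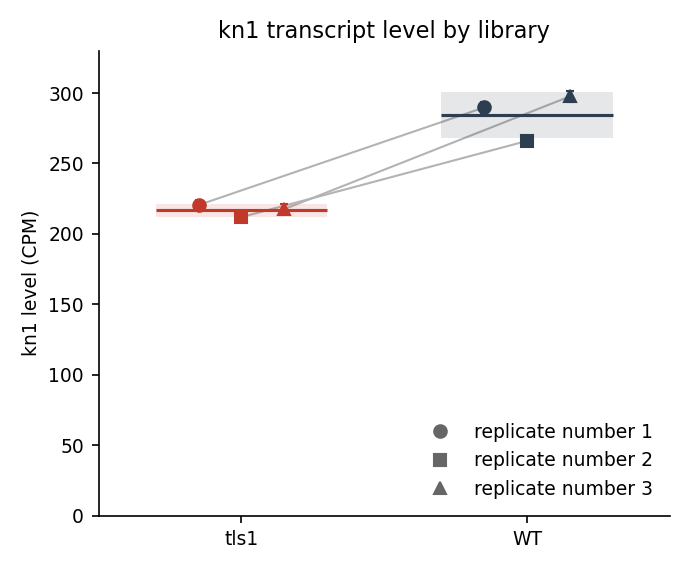
Level of kn1 in CPM (y axis, from 0) in the 3 tls1 and the 3 WT libraries. Points are libraries with their 95% counting intervals, symbols give the replicate number, grey lines join libraries of 1 number, and horizontal lines with shading give the mean ± SD. The tls1 libraries lie between 211.9 and 220.5 CPM and the WT libraries between 266.0 and 297.6 CPM.

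The mean level was 216.6 ± 4.37 CPM in tls1 and 284.4 ± 16.4 CPM in WT (SD, n = 3 each), so that tls1 had 0.762 times the WT level, a difference of -67.8 CPM. On the 6 CPM values alone the exact permutation test gave p = 0.1 (2-sided), the smallest that 3 libraries of each genotype can give. Fitted on the whole table with edgeR, the log2 fold change of tls1 over WT was -0.41 ± 0.064 (SE), with a 95% interval from -0.57 to -0.26. The unadjusted p was 0.000462, and after Benjamini-Hochberg adjustment over the 23349 genes tested the edgeR adjusted p was 0.103. At an adjusted p under 0.05, the threshold for a call, kn1 was therefore not called by edgeR. That fit called 1 gene, or 0.00428% of those tested, which was higher in tls1, and 0 genes lower, although 2153 genes (9.22%) were lower at an unadjusted p under 0.05. By unadjusted p, kn1 was the 105th gene of the table.

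Other fits of the same counts placed kn1 on either side of the threshold with nearly the same size of difference. DESeq2 called kn1 lower in tls1, with a log2 fold change of -0.41 ± 0.077 (SE) and a DESeq2 adjusted p of 2.22e-05. It called 569 genes lower, 2.44% of those tested, and kn1 was the 142nd gene by p. With the replicate number as a block, edgeR gave -0.41 ± 0.066 (SE, adjusted p = 0.0699), again short of the threshold, in a fit that called 47 genes lower (0.201%). With limma-voom the log2 fold change was -0.41 ± 0.063 (SE, adjusted p = 0.103), in a fit that called 2 genes higher and 0 lower. DESeq2 with the block called kn1 lower as well (adjusted p = 1.46e-06), among 733 genes, or 3.14%. In each of these 5 fits the 95% interval lay below 0 before adjustment for the number of genes.

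**Figure D2:**
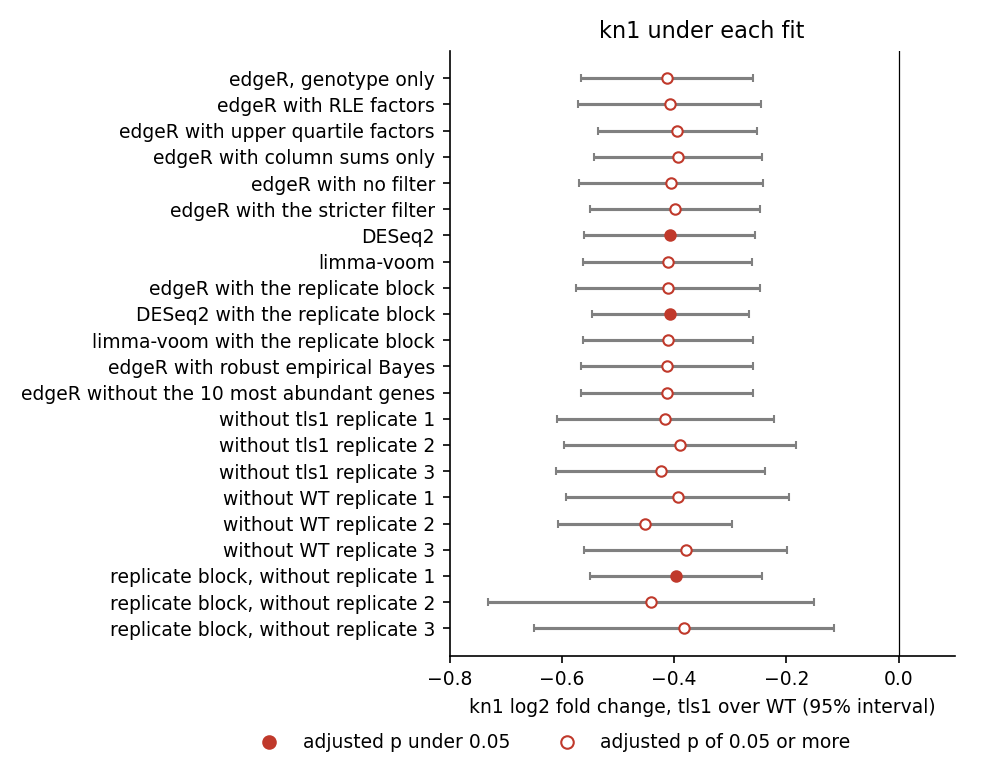
Log2 fold change of kn1, tls1 over WT (x axis), with its 95% interval under each of 22 fits (y axis), of which the topmost is edgeR with genotype alone. Filled points have an adjusted p under 0.05 and open points do not. The estimates lie between -0.45 and -0.38, and 3 of the fits pass.

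The change within same-numbered pairs had the same direction in 3 of 3. Any pairing would give this direction, as every tls1 library lay below every WT library, so only the sizes add to the levels above. In pair 1, tls1 had 220.5 CPM against 289.7 CPM in WT, a log2 ratio of -0.39, with an exact counting interval from -0.42 to -0.36. In pair 2, tls1 had 211.9 CPM against 266.0 CPM in WT, a log2 ratio of -0.33 (interval -0.36 to -0.30). In pair 3, tls1 had 217.6 CPM against 297.6 CPM in WT, a log2 ratio of -0.45 (interval -0.48 to -0.42). Pair 3 thus had the largest difference and pair 2 the smallest, and their counting intervals did not overlap. The mean log2 ratio was -0.39 ± 0.062 (SD, n = 3 pairs), and the exact sign-flip permutation test gave p = 0.25 (2-sided), the smallest that 3 pairs allow. When tls1 libraries were set against WT libraries of another number, the 6 log2 ratios ran from -0.49 to -0.27, a range that holds the one within pairs.

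The ratios of kn1 were set against those of all tested genes, computed on the log2(CPM + 0.5) scale. The median log2 ratio of the tested genes was 0.03 in pair 1, 0.01 in pair 2 and -0.00040 in pair 3. Division by the library total sets such medians close to 0, so they do not measure a shift common to all genes. In pair 1, 8.29% of the tested genes had a ratio at or below that of kn1. The share was 7.97% in pair 2 and 3.73% in pair 3. Tested genes that were lower in tls1 in all 3 pairs numbered 4970 (21.3%), and those lower in every pair by at least the smallest change of kn1 numbered 302 (1.29%). In CPM, 2610 genes (11.2%) had all tls1 libraries below all WT libraries, as kn1 did, so a lack of overlap was common among genes.

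**Figure D3:**
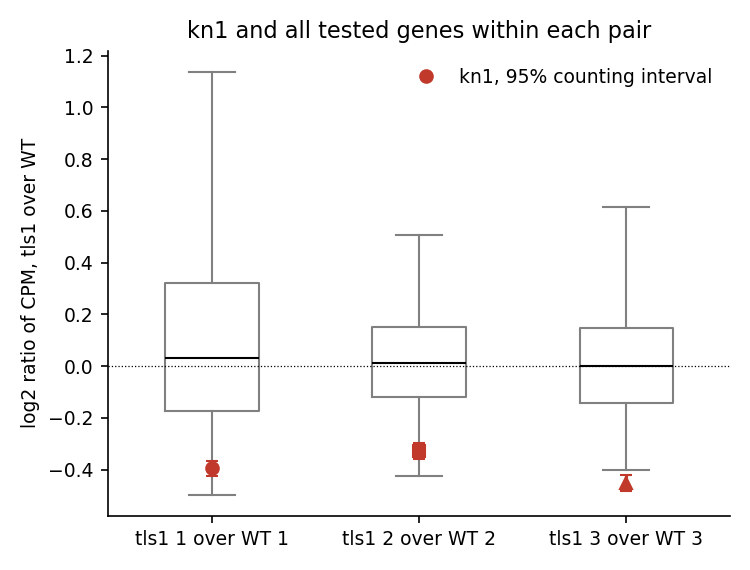
Log2 ratio of CPM, tls1 over WT (y axis), within each pair of libraries with the same replicate number (x axis). Boxes give the quartiles and the median of all 23349 tested genes, whiskers their 5th and 95th percentiles (log2(CPM + 0.5) scale), and red points kn1 with its 95% counting interval; kn1 lies at -0.39, -0.33 and -0.45, below the box in each pair.

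Few genes as abundant as kn1 were lower by as much. Among the 530 tested genes at or above its mean CPM, kn1 included, 10 had an edgeR log2 fold change at or below that of kn1, or 1.89%. Among all 23349 tested genes 1342 did, or 5.75%. The median log2 fold change was -0.03 in the abundant genes and 0.01 in all tested genes. Among the abundant genes, 108 (20.4%) had all tls1 libraries below all WT libraries and 92 (17.4%) were lower at an unadjusted edgeR p under 0.05. Of the 530, 4 were lower in every pair by at least the smallest pair change of kn1, kn1 itself among them. These counts describe the libraries and are not a test of kn1.

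**Figure D4:**
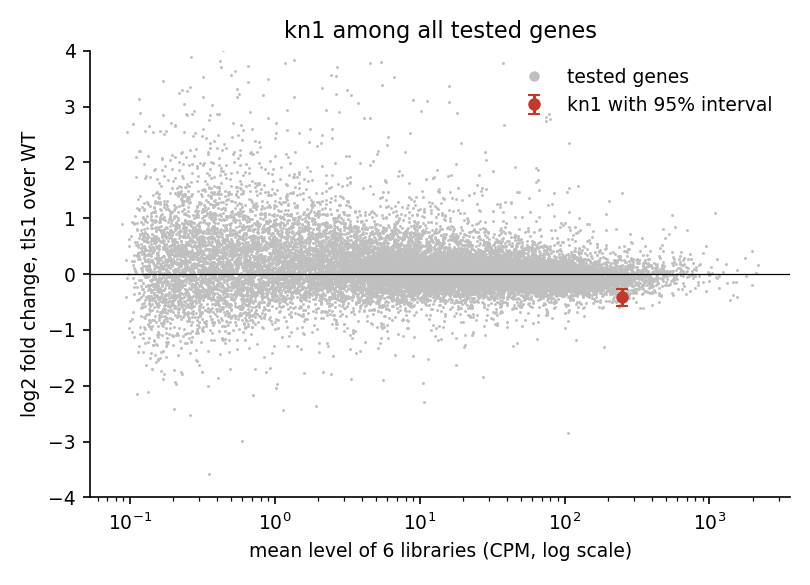
Log2 fold change of tls1 over WT (y axis) against the mean level of the 6 libraries in CPM (x axis, log scale) for the tested genes (grey) and kn1 (red, with the 95% interval of the edgeR fit). The axis ends 4 units either side of 0, which leaves out 52 genes. The kn1 transcript lies at -0.41, at the lower edge of the genes of similar level.

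By read abundance, kn1 stood within the top 3.58% of expressed genes in each library. Expressed genes were those with at least 1 CPM in at least 3 libraries, 19565 in all. Among them kn1 ranked 633rd in tls1 1, 701st in tls1 2 and 690th in tls1 3, against 391st in WT 1, 485th in WT 2 and 388th in WT 3. Its rank was later in every tls1 library than in any WT library. Over all 6 libraries it was 530th, or within the top 2.71%. CPM is not scaled for transcript length, so these ranks are ranks of reads and not of molecules. Set against the median expressed gene of the same library, kn1 had 8.62 ± 0.24 times its CPM in tls1 and 11.6 ± 0.65 times its CPM in WT (SD, n = 3 each). The lower level of kn1 in tls1 was therefore also seen on a scale that does not use the library total.

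**Figure D5:**
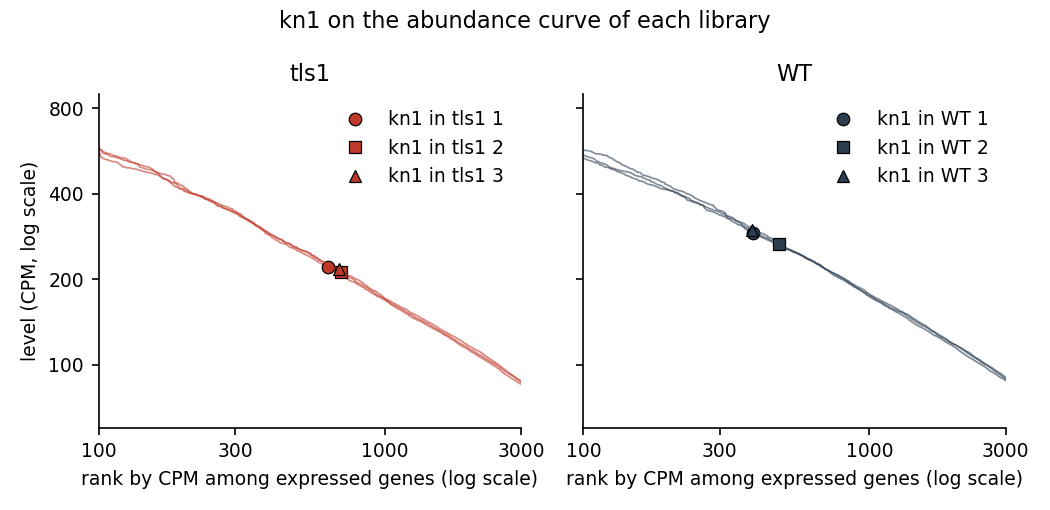
Level in CPM (y axis, log scale) against rank among the 19565 expressed genes (x axis, log scale) for the tls1 libraries (left) and the WT libraries (right), drawn around the ranks of kn1. Each line is a library and each symbol kn1 in it; kn1 stands at ranks 633 to 701 in tls1 and 388 to 485 in WT.

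The level of kn1 varied less between the tls1 libraries than between the WT libraries. Its coefficient of variation was 2.02% in tls1 and 5.78% in WT, where counting alone would give 0.789% in tls1 and 0.684% in WT. On the log2 scale the SD between libraries was 0.029 in tls1, and 4.39% of the tested genes had a smaller one. In WT the SD was 0.084, and 32.0% of the tested genes had a smaller one. The median SD of the tested genes was 0.14 in tls1 and 0.12 in WT. Most tested genes were less abundant than kn1, and its SD was not compared with genes of its own level. The median SE of the edgeR log2 fold change was 0.136 in all tested genes. It was 0.083 in those at or above the mean CPM of kn1, of which 13.4% had a smaller SE than kn1. Of all tested genes, 8.65% had a smaller SE than kn1. How far the small spread of kn1 goes with its abundance was not tested. With 3 libraries each, the difference in spread between genotypes was not tested. The biological coefficient of variation that edgeR fitted for kn1 was 0.0839 without the block and 0.0753 with it, against 0.272 and 0.165 for the common value of all tested genes.

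Shares of organellar reads, in which the libraries differed widely, overlapped between the genotypes. Mitochondrial genes took 0.135% of the reads in tls1 1, 0.316% in tls1 2 and 0.244% in tls1 3, against 0.319% in WT 1, 0.187% in WT 2 and 0.202% in WT 3. The highest and the lowest share both occurred in pair 1. Any link between this share and the kn1 level was not tested. Plastid genes took between 0.00108% and 0.00275% of the reads in tls1 and between 0.00179% and 0.00333% in WT. Of the 6 plastid genes fixed as markers of green leaf tissue, all were matched and none was at 0 in every library. Their summed level ran from 1.76 to 4.97 CPM in tls1 and from 2.90 to 5.44 CPM in WT, so the genotypes overlapped. The photosystem I genes psaA and psaB made up most of it, and rbcL, the large subunit of Rubisco, stayed at or below 0.0669 CPM in each library. In these libraries 3 reads correspond to 0.0387 CPM (WT 1) to 0.0414 CPM (WT 2), so rbcL rested on very few reads. The libraries were of poly-A RNA, and how far it captures plastid transcripts was not tested. The plastid levels therefore do not measure how much leaf tissue was present. The part of green leaf tissue in the kn1 values was not tested. Markers encoded in the nucleus, including those of meristem and primordia, could not be paired with rows and are not analysed here.

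The genes whose levels followed kn1 most closely across the 6 libraries were Zm00001d010877 and Zm00001d006456. Likeness was the Pearson correlation of log2(CPM + 0.5) with kn1, over the 13998 other tested genes with a mean of at least 10 CPM, and is a description of 6 libraries that all genes share. For Zm00001d010877 it was 0.998, with 32.7, 31.2 and 33.1 CPM in tls1 1, 2 and 3, against 45.7, 41.6 and 47.4 CPM in WT 1, 2 and 3. Like kn1, it was lowest in number 2 within each genotype and highest in WT 3. For Zm00001d006456 the correlation was 0.996, with a narrower range of 84.7 to 87.0 CPM in tls1 and 93.7 to 97.3 CPM in WT. The most opposed genes were Zm00001d044391 at -0.993 and Zm00001d039542 at -0.992. Zm00001d039542 had 32.2 ± 1.22 CPM in tls1 and 6.22 ± 3.09 CPM in WT (SD, n = 3 each), while Zm00001d044391 had 113.0 ± 2.40 CPM in tls1 and 97.1 ± 4.49 CPM in WT. None of these 4 genes was called by edgeR, with adjusted p from 0.0963 to 0.183. A correlation of at least 0.95 was reached by 149 genes (1.06%) and one of -0.95 or below by 141 (1.01%). The reference table pairs none of these identifiers with a name.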

How the data were processed

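Poly-A RNA of 3 tls1 and 3 WT tassel meristem samples was sequenced as paired reads, per the labels' protocols. The submitters' processing notes name cutadapt, which trims adapters, and STAR, an aligner. Their versions, the counter, its use of strand and the build were not given in the sources used here, and reads of near-identical, overlapping or antisense genes could not be told apart with certainty. The authors deposited raw read counts for 45953 rows, which were used as deposited.

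CPM is the count divided by the column sum, times 1000000. All genes that passed filterByExpr (23349) were fitted in R 4.3.3 with edgeR 4.0.16 (TMM factors, genotype alone in the model, quasi-likelihood F test), and p-values were adjusted by the Benjamini-Hochberg method. The interval of a fold change used the SE and degrees of freedom of that fit. Permutation tests enumerated every arrangement, in Python 3.11.15 with scipy 1.17.1. Alternatives were RLE, upper quartile or no factors, 2 other filters, DESeq2 1.42.0, limma-voom (limma 3.58.1), robust empirical Bayes, removal of the 10 most abundant genes, the replicate block, and leaving out libraries or pairs. Only the edgeR fit with genotype alone and the edgeR fit with the replicate block were tested on simulated counts with known changes. The other alternatives, DESeq2 and limma-voom among them, were not.

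What a replicate number stands for is not in the labels. Across genes, departures from the mean of the genotype were correlated between tls1 and WT libraries of the same number. The correlations were 0.378, 0.580 and 0.700 for numbers 1, 2 and 3. Between libraries of different numbers they ran from -0.515 (tls1 3 with WT 2) to 0.0314 (tls1 1 with WT 2). Departures from a genotype mean sum to 0, so these correlations are not independent. In the log2 levels themselves, tls1 1 correlated slightly more with WT 2 (0.981) than with WT 1 (0.979). There tls1 2 and tls1 3 correlated most with the WT library of their own number. This evidence is from the data and not the design. Same-numbered libraries were compared as pairs in the ratios, and the number was a block in alternative fits only. The main edgeR fit used genotype alone and ignored the number.

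The gene, the lists and the tests were chosen with earlier results of these data known. Named genes were kn1, the 2 genes most like and the 2 most unlike it, and any gene of the lists fixed by symbol (KNOX genes, BELL partners, KN1 targets, KNOX repressors, boron transport genes and tissue markers). The reference table of names (Zm-B73-REFERENCE-NAM-5.0) matched 0 of 43789 nuclear identifiers. Of those lists only the 6 plastid markers could be paired, the mutated gene could not be checked, and no sequence of kn1 is shown.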

Additional observations from a re-analysis of the deposited data

How the results depend on the processing

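The log2 fold change of kn1 was negative in each of 21 alternatives, between -0.45 and -0.38, and its adjusted p lay between 1.46e-06 and 0.406. As the alternatives use the same libraries and the genotypes do not overlap in CPM, the sign could hardly change. The threshold was passed in 3 alternatives, at -0.41 with DESeq2, at -0.41 with DESeq2 and the replicate block (adjusted p = 1.46e-06), and at -0.40 with the edgeR replicate block without pair 1 (adjusted p = 0.0444). With the edgeR replicate block over all pairs it was -0.41 (adjusted p = 0.0699), and with limma-voom and the block -0.41 (adjusted p = 0.0546), so with all pairs kept the block moved kn1 across the threshold in none of the 3 tools. Leaving out 1 library gave -0.45 to -0.38 (adjusted p from 0.122 to 0.406), and the block without pair 2 or 3 gave -0.44 and -0.38 (adjusted p = 0.170 and 0.323).

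The count of genes called, 1 in the edgeR fit with genotype alone, was 13 with no filter, 1250 with DESeq2, 2 with limma-voom, 162 with the edgeR replicate block, 1633 with DESeq2 and the replicate block and 236 with limma-voom and the replicate block. Leaving out 1 library gave from 0 to 9 (without WT 2), and the block gave 433 without pair 1, 159 without pair 2 and 52 without pair 3. DESeq2, limma-voom and the block over all pairs used the same 23349 genes and the same libraries. The other alternatives named here had fewer libraries or other genes tested. The cause of the changes in count was not tested. The difference in mean CPM ran from -77.0 without WT 2 to -61.2 without WT 3, and the mean log2 ratio of the pairs from -0.42 to -0.36 when a pair was left out. The rank of kn1 was 662 by the tls1 mean and 415 by the WT mean. The 149 genes with a likeness of at least 0.95 became 30 by Spearman's correlation and 980 with the pair mean removed. The 2 genes named as most like kn1 depended on the measure. By Spearman's correlation Zm00001d006456 was 1 of the 30, tied at a rho of 1.0, and Zm00001d010877 had 0.943. With the pair mean removed, other genes took both of the first places, with Zm00001d006456 at 0.996 and Zm00001d010877 at 0.999. Each library held 15568 or more reads of kn1, so its counting intervals were narrow.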

Other observations

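The rows directly before and after kn1 in the deposited table, Zm00001d033858 and Zm00001d033860, were low beside it, with mean levels of 5.52% and 5.60% of that of kn1 in CPM, a scale that is not per length. Zm00001d033858 had 15.1 ± 1.82 CPM in tls1 and 12.5 ± 0.50 CPM in WT (SD, n = 3 each). It was not called by edgeR (log2 fold change 0.25 ± 0.11 SE, edgeR adjusted p = 0.336). Its genotypes did not overlap, with tls1 libraries at 13.8 CPM or more and WT libraries at 13.0 CPM or less, the opposite direction to kn1. Zm00001d033860 had 14.6 ± 0.32 CPM in tls1 and 13.5 ± 1.10 CPM in WT, and its genotypes overlapped (log2 fold change 0.10 ± 0.093 SE, edgeR adjusted p = 0.643). Neither had the lower level in tls1 that kn1 had. They were chosen by their place in the table, and the row order was not checked against a genome.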
